A study of Homo sapiens with 9 samples.

Results

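SCNN1A, SCNN1B, SCNN1G and SCNN1D encode the subunits of the epithelial sodium channel, and their transcripts were measured in human 293T cells expressing a CIC fusion protein. The genes were taken by symbol and are 4 of the 62700 genes of the count table. SCNN1B and SCNN1G were chosen by their measured counts in these same comparisons, so their values are a description and carry no test. SCNN1A and SCNN1D were added to complete the family. The study sequenced polyA RNA from 9 cultures of 293T, an established embryonic kidney line carrying the SV40 large T antigen, in 3 groups of 3 libraries. One group received the vector with no insert, another an HA-tagged fusion of CIC exon 20 to NUTM1 exon 6, HA-CIC(ex20)::NUTM1(ex6), here CIC::NUTM1, and the third HA-CIC::DUX4, here CIC::DUX4. Each culture of 300000 cells was reverse transfected with Fugene 6, different replicates on different days, and RNA was taken about 48 hours later. All groups shared the line, the reagent and the interval, expression was transient, and the fraction of cells that took up plasmid is not given in the sources used here. Fusion transcripts were not analysed here, and the labels therefore stand as given.

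The epithelial sodium channel sits in the apical membrane of salt-reabsorbing epithelia such as the distal nephron and collecting duct, the distal colon and the airway. The classical channel is assembled from alpha (SCNN1A), beta (SCNN1B) and gamma (SCNN1G) subunits. The alpha subunit is needed for appreciable current, and beta and gamma raise the number and activity of channels at the surface. The delta subunit (SCNN1D) can replace alpha and is found in tissues outside the kidney. Proteases activate the channel by cleaving alpha and gamma, the ubiquitin ligase NEDD4L removes it from the surface, and the kinase SGK1, induced by aldosterone and glucocorticoids, opposes NEDD4L. CIC is a DNA-binding repressor that recognises TGAATGAA-like octamers, and fusion to DUX4 or NUTM1 in sarcomas turns it into an activator.

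Library totals ran from 16970771 to 33655445 counts. Levels are given as CPM, the count of a gene relative to the library total, scaled between libraries by the trimmed mean of M-values (TMM), with the SD over 3 libraries. Genes were tested with edgeR's quasi-likelihood test, and a gene is called where its Benjamini-Hochberg adjusted p over the 17576 tested genes was under 0.05. Embryonic kidney genes such as SIX2 (43.1 to 52.5 CPM) and SALL1 (46.1 to 83.4 CPM) and the neurofilament genes NEFL (135 to 208 CPM) and NEFM (292 to 656 CPM) were detected in every library, while PAX8 lay between 0 and 1.72 CPM. One library stood apart. CIC::DUX4 replicate 1 had 42 genes with at least 20 counts that had at most 2 counts in every other library, and no other library had more than 1 such gene. Among them, named after their values were seen, were POU5F1 (1402 counts, and 1 count in the other 8 libraries together), DPPA4 (422 counts), L1TD1 (361 counts) and TDGF1 (188 counts), the last 3 at 0 elsewhere and all known from pluripotent stem cells. The main results that rest on this library are given with and without it. Other values include it unless stated.

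All 4 subunit genes passed the abundance filter, SCNN1A, SCNN1B and SCNN1G only through the libraries in which they were high. In the empty vector cells SCNN1D was the one subunit above the background of a few counts. Both fusion groups had SCNN1B and SCNN1G transcripts in every library, SCNN1G at the higher level with CIC::NUTM1 and SCNN1B at the higher level with CIC::DUX4. SCNN1A stayed low except in CIC::DUX4 replicate 1, and SCNN1D was not called in any comparison.

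**Figure D1:**
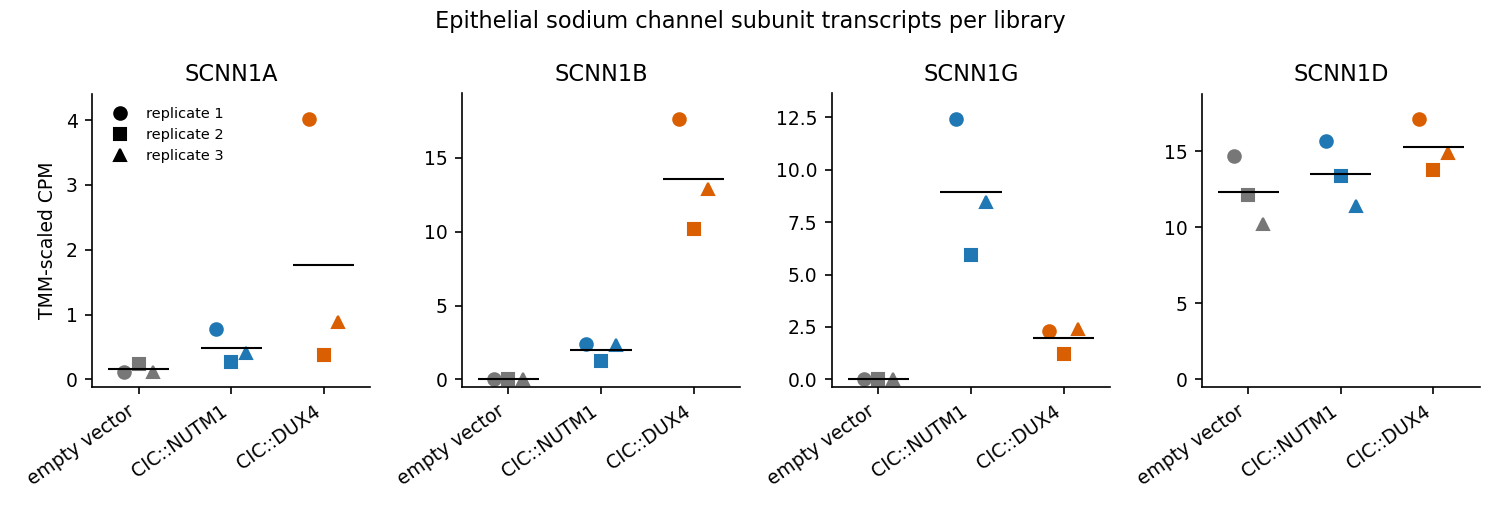
TMM-scaled CPM of the 4 subunit genes in each library, on a linear axis of its own for each gene. Symbols are libraries, marked by replicate number, and the line is the mean of 3. SCNN1B reaches 10.2 to 17.6 CPM with CIC::DUX4 and SCNN1G 5.93 to 12.4 CPM with CIC::NUTM1, and the highest SCNN1A value, 4.01 CPM, belongs to CIC::DUX4 replicate 1.

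SCNN1A (ENSG00000111319, GRCh38 chr12:6346843-6377730, minus strand) encodes the alpha subunit. Its empty vector libraries held 2, 8 and 3 counts (0.114, 0.234 and 0.12 CPM). The CIC::NUTM1 libraries held 13, 7 and 8 counts (0.78, 0.268 and 0.414 CPM). The CIC::DUX4 libraries held 105, 8 and 15 counts (4.01, 0.383 and 0.882 CPM). Every library of both fusions was above every empty vector library. CIC::DUX4 replicate 1 was far above the other 2, of which replicate 2 lay within the CIC::NUTM1 range and replicate 3 just above it. With all libraries, SCNN1A rose with CIC::DUX4 by 3.4 ± 0.76 (SE) on the log2 scale (edgeR adjusted p = 0.00475), in a comparison in which 8.24% of all tested genes were called, 6.96% higher and 1.27% lower. SCNN1A passed the abundance filter only through fusion libraries. In a fit of all genes with at least 1 count, with no other filter, the change was 3.38 (edgeR adjusted p = 4.18e-06). That fit included replicate 1 as well, so it does not show whether the rise holds without this library. Its smaller adjusted p came with almost the same change in the same libraries and adds no support. Why it fell was not tested. Without replicate 1 the change was 1.89 ± 0.80 and the call was lost (edgeR adjusted p = 0.261). The change with CIC::NUTM1 was 1.48 ± 0.84 (edgeR adjusted p = 0.27), where 15.3% of tested genes were called, 11.5% higher and 3.83% lower. The direct difference, CIC::NUTM1 minus CIC::DUX4, was -1.92 ± 0.69 (edgeR adjusted p = 0.114), where 6.61% of tested genes were called, 4.97% higher and 1.64% lower. Without replicate 1 it was -0.39 ± 0.75 (edgeR adjusted p = 0.851). Of the called genes 75.0% were higher with CIC::NUTM1 against empty vector and 75.2% against CIC::DUX4, and with libraries scaled by totals alone these shares were 61.0% and 61.4%. The empty vector values rest on few counts, and 3 counts would give 0.0878 to 0.172 CPM in those libraries.

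The exons of SCNN1A share 422 bases with LTBR on the opposite strand, and whether counting used strand is not given in the sources used here. LTBR, a lymphotoxin receptor gene with 7633 counts in all, had 38.8 CPM in CIC::DUX4 replicate 1 and 34.0 to 42.2 CPM over the 9 libraries. It was not called in any comparison, with log2 fold changes of 0.14 ± 0.09 for CIC::DUX4 and 0.08 ± 0.09 for CIC::NUTM1 (edgeR adjusted p of 0.432 and 0.624).

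Many but not all epithelial genes were highest in the same library as SCNN1A. Of 20 epithelial and collecting duct markers, 11 had their highest value of the 9 libraries in CIC::DUX4 replicate 1, and no other library held the highest value of more than 3. The share of all genes highest in that library was not computed, so this count has no background beside it. Some of the 11 led narrowly at low levels, as CLDN4 (1.03 CPM, and 0.916 CPM in empty vector replicate 1). The summed level of the 20 markers was 229 CPM in CIC::DUX4 replicate 1 and 153 to 204 CPM in the other libraries. Without KRT18 and GATA3, the markers with the most counts, it was 88.0 CPM against 39.8 to 60.8 CPM. ESRP1, an epithelial splicing factor, had 2.75 CPM there and at most 0.118 CPM elsewhere. KRT19 had 2.21 CPM there and was at 0 in 7 of the other libraries. EPCAM, an epithelial adhesion gene, had 5.3 CPM there and 0.744 to 2.26 CPM elsewhere. PRSS8 and ST14, which encode the channel-activating proteases prostasin and matriptase, reached 2.36 and 1.41 CPM in that library and at most 0.205 and 0.41 CPM in the others. They were picked after their values were seen, and several other genes of the protease list were not highest there. TMPRSS2 had 0.458 CPM there and 0.572 CPM in empty vector replicate 1. MEP1A had 0.191 CPM there and 0.96 CPM in CIC::NUTM1 replicate 1. Other epithelial markers were low in CIC::DUX4 replicate 1. GRHL1 (7.06 CPM) and TFCP2L1 (8.77 CPM), epithelial transcription factor genes, had their lowest value of the 9 libraries there, and ESRP2 (9.35 CPM) lay below the 3 controls. ELF5 had at most 3 counts in any library. The part of these transcripts in the SCNN1A result was not tested.

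**Figure D2:**
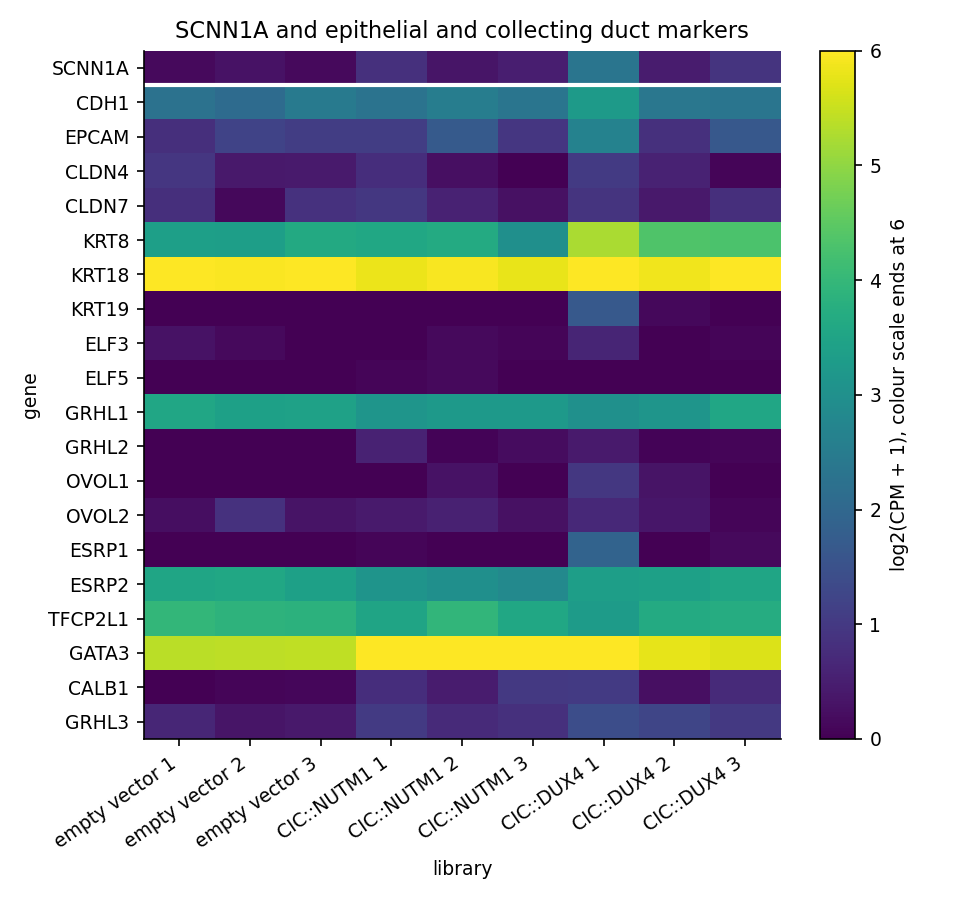
Level of SCNN1A (top row) and of the epithelial and collecting duct markers reported here in each library, as log2(CPM + 1) from TMM-scaled CPM, with the colour scale ending at 6. The column of CIC::DUX4 replicate 1 holds the highest value of 11 markers, some by a narrow margin at low levels, and of SCNN1A. The share of all genes highest in that library was not computed.

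SCNN1B (ENSG00000168447, GRCh38 chr16:23278231-23381299, plus strand) encodes the beta subunit. The empty vector libraries held 0, 1 and 0 counts. The CIC::NUTM1 libraries held 40, 32 and 45 counts (2.4, 1.22 and 2.33 CPM). The CIC::DUX4 libraries held 462, 213 and 219 counts (17.6, 10.2 and 12.9 CPM). The 3 groups did not overlap, and CIC::DUX4 was the highest. Group means were 0.00976 CPM (1 count in 3 libraries), 1.99 ± 0.66 CPM and 13.6 ± 3.76 CPM. Taken from pooled counts, the level with CIC::DUX4 was 1070 times that of empty vector, with a 95% exact counting interval of 191 to 42200 that reflects the single control count. For CIC::NUTM1 the ratio was 144 (25.4 to 5750). Without CIC::DUX4 replicate 1 the CIC::DUX4 ratio was 873 (156 to 34600). These intervals cover counting error only. Between the fusions, where both groups had counts, the mean with CIC::DUX4 was 6.83 times that with CIC::NUTM1, and 5.81 times without replicate 1.

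The RefSeq promoter table (GRCh38.p14) held a window for SCNN1B alone among the 4 genes. Its start lies within the annotated span of the gene, downstream of the first start in GENCODE 29, and the 250 bases before it (chr16:23302052-23302301, plus strand) are shown because it is the one member promoter that can be set beside the counts. Capitals mark the GC box GGGCGG, which reads CCGCCC on this strand and occurs on either strand in 45.0% of the 35116 windows in the table. None of the CIC octamers TGAATGAA, TGAATGGA, TCAATGAA and TCAATGGA was found on either strand of the window. Of all windows, 3.77% held at least 1 of them.
SCNN1B: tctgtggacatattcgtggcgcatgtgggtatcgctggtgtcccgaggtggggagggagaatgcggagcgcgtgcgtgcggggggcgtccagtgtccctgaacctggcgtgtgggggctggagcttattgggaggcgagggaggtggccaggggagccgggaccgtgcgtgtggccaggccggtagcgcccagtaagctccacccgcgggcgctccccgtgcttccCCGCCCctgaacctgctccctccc

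SCNN1G (ENSG00000166828, GRCh38 chr16:23182715-23216883, plus strand) encodes the gamma subunit and lies 61.3 kb before SCNN1B on the same strand. No empty vector library held a count, which allows up to 0.0878 to 0.172 CPM at 3 counts per library. The CIC::NUTM1 libraries held 206, 155 and 163 counts (12.4, 5.93 and 8.44 CPM). The CIC::DUX4 libraries held 60, 25 and 41 counts (2.29, 1.2 and 2.41 CPM). The 3 groups again did not overlap, with the order of the fusions opposite to that of SCNN1B. The mean was 8.91 ± 3.24 CPM in the CIC::NUTM1 libraries and 1.97 ± 0.668 CPM in the CIC::DUX4 libraries. Against the floor of 3 counts per library the levels were at least 70.4-fold higher with CIC::NUTM1 and at least 15.5-fold higher with CIC::DUX4 (at least 14.3-fold without replicate 1). The mean with CIC::NUTM1 was 4.53 times that with CIC::DUX4, and 4.94 times without CIC::DUX4 replicate 1. Genes on the opposite strand that overlap SCNN1G in whole or in part held 2 counts (AC099482.1) and 1 count (AC099482.2) over all libraries.

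SCNN1D (ENSG00000162572, GRCh38 chr1:1280436-1292029, plus strand) encodes the delta subunit. It had 14.7, 12.1 and 10.2 CPM with empty vector, 15.7, 13.4 and 11.4 CPM with CIC::NUTM1, and 17.1, 13.8 and 14.9 CPM with CIC::DUX4. The ranges of the 3 groups overlapped. The log2 changes were 0.32 ± 0.15 with CIC::DUX4 (edgeR adjusted p = 0.262) and 0.13 ± 0.16 with CIC::NUTM1 (edgeR adjusted p = 0.65). The direct difference was -0.19 ± 0.15 (edgeR adjusted p = 0.59). Without CIC::DUX4 replicate 1 the CIC::DUX4 change was 0.22 ± 0.17 and the direct difference -0.09 ± 0.17 (edgeR adjusted p of 0.645 and 0.851).

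Levels of different subunits were compared as CPM per kilobase of merged exons, which are 5.88 kb for SCNN1A, 3.92 kb for SCNN1B, 3.51 kb for SCNN1G and 4.03 kb for SCNN1D. With empty vector, SCNN1D made up 99.0 ± 0.527% (SD, n = 3) of the summed level of the 4 genes. With CIC::NUTM1 the shares were 52.5 ± 8.06% SCNN1D, 38.5 ± 6.14% SCNN1G, 7.8 ± 2.14% SCNN1B and 1.22 ± 0.388% SCNN1A. With CIC::DUX4 they were 47.6 ± 5.58% SCNN1D, 42.3 ± 2.12% SCNN1B, 6.85 ± 1.78% SCNN1G and 3.23 ± 3.09% SCNN1A, the last 1.46% without replicate 1. The beta and gamma subunits exchanged places between the fusions while SCNN1D remained the largest share by mean in both, although SCNN1B exceeded it in CIC::DUX4 replicate 1 (44.6% against 42.2%). The ratio of SCNN1B to SCNN1G per kilobase was 0.174, 0.185 and 0.247 in the CIC::NUTM1 libraries and 6.89, 7.63 and 4.78 in the CIC::DUX4 libraries. SCNN1B and SCNN1G were chosen for their different fusion preference in these libraries. The exchange of places and the gap between these ratios therefore follow from the choice and carry no test. SCNN1A was the least abundant subunit per kilobase in every CIC::NUTM1 library and in CIC::DUX4 replicates 2 and 3, at 0.0456 to 0.15 CPM per kilobase. In CIC::DUX4 replicate 1 it stood at 0.682, beside 0.653 for SCNN1G. In bulk RNA, fewer expressing cells and less RNA per cell cannot be told apart, so these shares do not say whether one cell held several subunits.

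**Figure D3:**
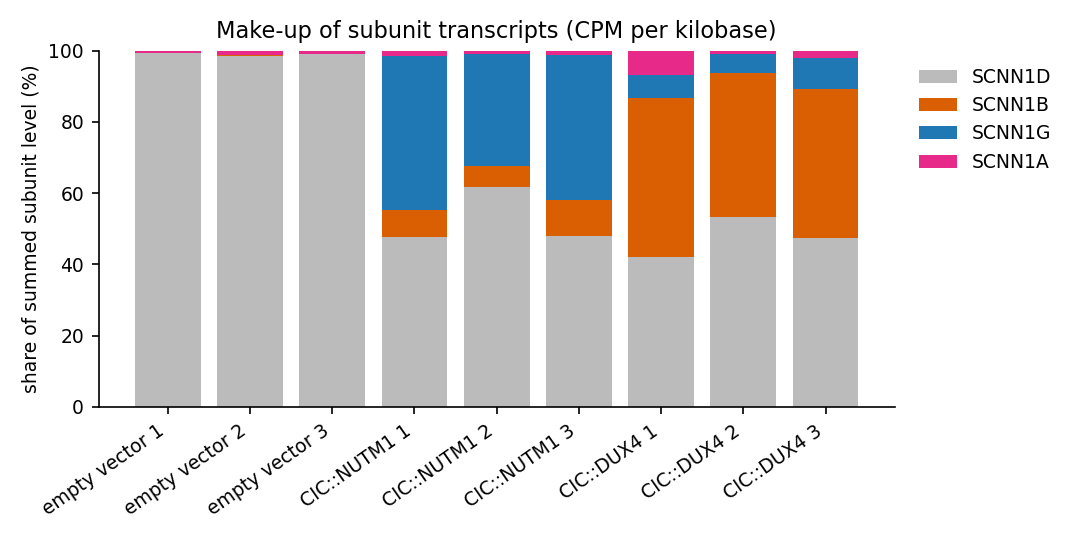
Share of each subunit gene in the summed level of the 4 genes, in percent, for each library, from CPM per kilobase of merged exons. SCNN1D fills 98.5 to 99.5% of the empty vector bars, SCNN1G 31.5 to 43.1% of the CIC::NUTM1 bars and SCNN1B 40.4 to 44.6% of the CIC::DUX4 bars.

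Over the 9 libraries, which share their groups, the Pearson correlation of log2 CPM was 0.755 between SCNN1B and SCNN1G and 0.806 between SCNN1A and SCNN1B. It was 0.384 between SCNN1G and SCNN1D. The 5 genes whose log2 CPM followed SCNN1G most closely were SPON2 (r = 0.998), FOSB (0.995), PTPN9 (0.994), OLFM1 (0.992) and COL5A3 (0.992). COL5A3, a collagen gene, had 0.155 ± 0.0637, 33.7 ± 6.75 and 5.41 ± 1.99 CPM with empty vector, CIC::NUTM1 and CIC::DUX4. FOSB, an AP-1 transcription factor gene, had 2.99 ± 0.442, 24.7 ± 5.8 and 12.2 ± 1.59 CPM. The 5 that followed SCNN1B were ENSG00000274021 (r = 0.998), GRIP2 (0.996), MSLNL (0.996), SPRY3 (0.993) and LRRC53 (0.992). ENSG00000274021 was at 0 with empty vector and averaged 3.37 ± 1.46 CPM in the CIC::NUTM1 libraries and 50.1 ± 11.8 CPM in the CIC::DUX4 libraries. MSLNL had 0.00976, 2.51 ± 0.484 and 13.6 ± 1.62 CPM. These genes were selected for their likeness over 9 libraries in 3 groups, so the correlations are descriptive.

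The genes next to the members were examined as the 5 nearest protein-coding genes on each side. Around SCNN1G and SCNN1B, 9 of 10 were tested, and 2 were called with CIC::DUX4 (22.2% of those tested, beside 8.24% of all tested genes), 4 with CIC::NUTM1 (44.4%, beside 15.3%) and 2 in the direct comparison (22.2%, beside 6.61%). USP31, a deubiquitinase gene 33.4 kb below SCNN1G, had 24.1, 23.0 and 20.8 CPM with empty vector, 63.4, 48.9 and 65.4 CPM in the CIC::NUTM1 libraries, and 27.3, 26.6 and 23.9 CPM with CIC::DUX4. The CIC::NUTM1 libraries stood far above the control range, CIC::DUX4 replicates 1 and 2 slightly above it, and CIC::DUX4 replicate 3 within it. USP31 rose with CIC::NUTM1 by 1.39 ± 0.11 on the log2 scale (edgeR adjusted p = 8.43e-10), its change with CIC::DUX4 was 0.20 ± 0.11 (edgeR adjusted p = 0.342), and the direct difference of 1.18 ± 0.11 was called (edgeR adjusted p = 5.24e-08). COG7, a Golgi tethering subunit gene 7.19 kb beyond SCNN1B, had 27.8, 27.4 and 31.6 CPM with empty vector, 39.7, 32.9 and 39.6 CPM in the CIC::NUTM1 libraries, and 24.6, 21.6 and 20 CPM with CIC::DUX4. COG7 moved in opposite directions, by 0.37 ± 0.11 with CIC::NUTM1 and -0.39 ± 0.11 with CIC::DUX4 (edgeR adjusted p of 0.0204 and 0.0262). The direct difference was 0.75 ± 0.11 (edgeR adjusted p = 4.39e-05) and stayed called in each of 6 refits that left out 1 library. The changes against empty vector were less stable: the one with CIC::NUTM1 lost its call in 4 of 6 such refits (edgeR adjusted p up to 0.113) and the one with CIC::DUX4 in 3 of 6 (up to 0.188).

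NPIPB5 was called higher with both fusions, by 0.66 ± 0.18 with CIC::DUX4 and 0.54 ± 0.18 with CIC::NUTM1 (edgeR adjusted p of 0.0229 and 0.0496), and is 1 of a family of near-identical genes whose reads may be split. Its calls were lost in 3 and 5 of the 6 refits, the first of them without CIC::DUX4 replicate 1 among others (edgeR adjusted p = 0.192). GGA2, a trans-Golgi adaptor gene, rose with CIC::NUTM1 by 0.21 ± 0.06 (edgeR adjusted p = 0.0158), a call lost without empty vector replicate 2 (0.0861) or CIC::NUTM1 replicate 3 (0.0697). HS3ST2, between USP31 and NPIPB5, had at most 8 counts in a library and was not tested. The beta subunit gene, lower with CIC::NUTM1 than with CIC::DUX4, stood between SCNN1G and COG7, which were both higher. Around SCNN1A, 6 of 10 neighbours were tested and none was called against empty vector, and around SCNN1D 8 of 10 were tested. Of all tested genes 8.24% were called with CIC::DUX4 and 15.3% with CIC::NUTM1. B3GALT6, near SCNN1D, fell by 0.33 on the log2 scale with CIC::NUTM1 (edgeR adjusted p = 0.00605, and 0.0612 without empty vector replicate 3). TNFRSF1A, near SCNN1A, differed in the direct comparison by -0.34 ± 0.10 (edgeR adjusted p = 0.0354), a call lost in 4 of 6 refits, including the one without CIC::DUX4 replicate 1 (0.115).

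**Figure D4:**
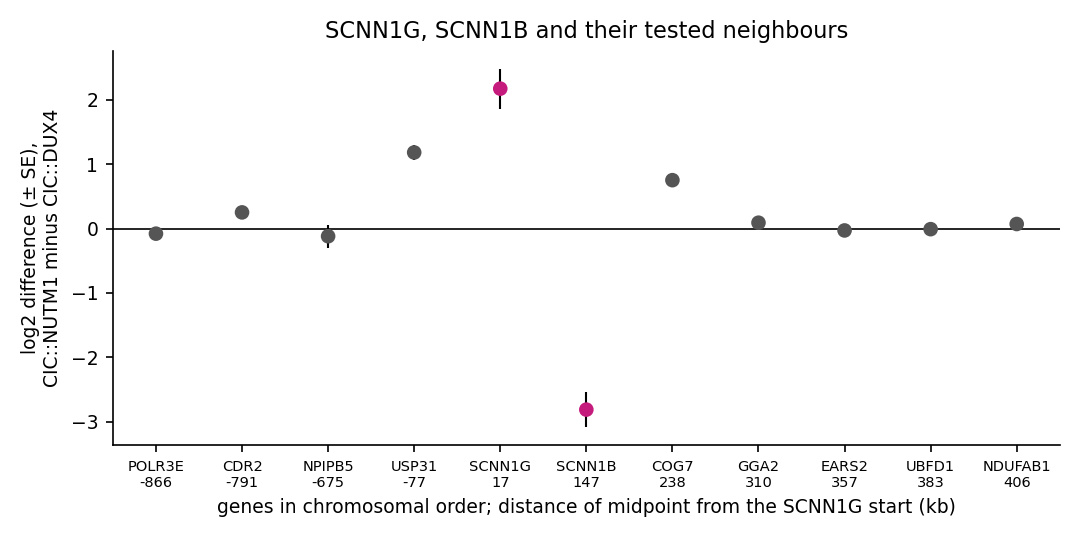
Difference between the fusions, CIC::NUTM1 minus CIC::DUX4, on the log2 scale (points, with SE) for SCNN1G and SCNN1B (magenta) and their 9 tested neighbours (grey), in chromosomal order with equal spacing and the distance of each midpoint from the start of SCNN1G written below. SCNN1G (2.17 ± 0.31), USP31 and COG7 lie above 0 and SCNN1B (-2.81 ± 0.27) below it, and GGA2, EARS2, UBFD1 and NDUFAB1 lie within 0.1 of 0.

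Genes of the channel's pathway were followed in 8 lists with 116 members, of which 87 were tested. With CIC::DUX4, 16 were called, or 18.4% of those tested, beside 8.24% of all tested genes. With CIC::NUTM1, 27 were called (31.0%, beside 15.3%), and between the fusions 17 (19.5%, beside 6.61%). The median log2 change of the tested list genes was 0.01, 0.08 and 0.07 in these comparisons, and that of all tested genes was -0.001, -0.001 and -0.005. Both fusions were set against the same empty vector libraries, so the calls of one are not independent of those of the other. The lists were chosen with earlier results of these data known, and some of their genes passed the filter only through fusion libraries. The shares are therefore a description and carry no test of the pathway. Without CIC::DUX4 replicate 1, 7 of the 16 remained called with CIC::DUX4 and 15 of the 17 between the fusions, while the calls over all tested genes went from 1448 to 869 and from 1162 to 878.

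Among the channel's relatives, 3 of 5 acid-sensing ion channel genes were tested and none was called with CIC::DUX4, where 8.24% of tested genes were. ASIC1 was lower with CIC::NUTM1 at 57.5 ± 6.64 CPM against 69.6 ± 5.18 CPM with empty vector (a log2 change of -0.27 ± 0.09, edgeR adjusted p = 0.0445), a call lost in 5 of 6 refits.

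Of 12 genes for proteases that cleave the channel and their inhibitors, 7 were tested. FURIN, the proprotein convertase that cuts alpha and gamma in the Golgi, lay between 108 and 119 CPM in all libraries and was not called. MEP1A, a meprin gene, rose with CIC::NUTM1 from 0.0954 ± 0.165 to 0.774 ± 0.161 CPM (edgeR adjusted p = 0.014), but not past the threshold without empty vector replicate 2 (0.0842) or 3 (0.0764). MEP1A passed the filter only through the CIC::NUTM1 libraries, and with no filter beyond 1 count its change was 3.23 (edgeR adjusted p = 0.0144). SPINT2, a Kunitz inhibitor of these proteases, was lower with CIC::NUTM1 than with CIC::DUX4, 39.0 ± 5.37 against 53.5 ± 5.31 CPM, a difference of -0.46 ± 0.10 (edgeR adjusted p = 0.00426).

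All 17 genes for ubiquitination and trafficking of the channel were tested. With CIC::DUX4, 3 rose and none fell (17.6% called, beside 8.24% of all tested genes). With CIC::NUTM1, 5 rose and none fell (29.4% called, beside 15.3%). Of all tested genes only 1.27% and 3.83% were called lower in these comparisons. NEDD4L, the ligase that binds the tails of the subunits, had 26.3, 30.7 and 31.0 CPM with empty vector, 57.4, 42.5 and 62.4 CPM in the CIC::NUTM1 libraries, and 78.4, 63.3 and 67.1 CPM with CIC::DUX4. Its libraries did not overlap between any of the groups. NEDD4L rose by 1.24 ± 0.12 with CIC::DUX4 and 0.87 ± 0.12 with CIC::NUTM1 (edgeR adjusted p of 4.64e-07 and 2.49e-05), while the direct difference of -0.37 ± 0.12 was not called (edgeR adjusted p = 0.0719). Its relative NEDD4 rose by 0.73 ± 0.11 with CIC::NUTM1 (edgeR adjusted p = 2.75e-05) and by 0.46 ± 0.11 with CIC::DUX4 (0.0078, and 0.103 without CIC::DUX4 replicate 1). CNKSR3, a scaffold that joins SGK1 and NEDD4L, rose with CIC::NUTM1, from 15.8 ± 0.609 to 32.1 ± 2.86 CPM (1.02 ± 0.11 on the log2 scale, edgeR adjusted p = 1.29e-07). It was higher with CIC::NUTM1 than CIC::DUX4 by 0.66 ± 0.11 (edgeR adjusted p = 0.000205), and its change of 0.36 ± 0.11 with CIC::DUX4 (0.0432) was lost in all 6 refits. USP10, a deubiquitinase, rose with CIC::NUTM1 by 0.30 ± 0.06 (edgeR adjusted p = 0.00102). NDFIP2, an adaptor of NEDD4 ligases, was higher with CIC::NUTM1 than CIC::DUX4 by 0.31 ± 0.07 (edgeR adjusted p = 0.00399). Its change of 0.20 ± 0.07 against empty vector (edgeR adjusted p = 0.0417) lost its call in 5 of 6 refits. That call was also lost with libraries scaled by totals alone (edgeR adjusted p = 0.11) or by DESeq2 size factors (0.0517), and with no filter beyond 1 count (0.121). The direct differences of USP10 (0.25 ± 0.06) and NDFIP1 (0.25 ± 0.06) were called at edgeR adjusted p of 0.011 and 0.0146 and were lost in 2 and 3 of 6 refits, both without CIC::NUTM1 replicate 3 (0.0915 and 0.1).

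Of 17 genes for kinases acting on the channel and their regulators, 16 were tested. SGK1 was the only one called with CIC::DUX4 (6.25%, beside 8.24% of all tested genes), and 5 were called with CIC::NUTM1 (31.2%, beside 15.3%). SGK1 had 4.41, 3.48 and 3.97 CPM with empty vector, 36.2, 21.8 and 37.0 CPM in the CIC::NUTM1 libraries, and 29, 22.9 and 20.6 CPM with CIC::DUX4. All fusion libraries were well above all controls, and the fusion groups overlapped. SGK1 rose by 2.64 ± 0.20 with CIC::DUX4 and 3.01 ± 0.20 with CIC::NUTM1 (edgeR adjusted p of 5.47e-08 and 5.32e-09), and the direct difference of 0.38 ± 0.17 was not called (edgeR adjusted p = 0.256). With CIC::NUTM1, RICTOR, the mTORC2 subunit through which SGK1 is phosphorylated, rose from 24.3 ± 3.79 to 46.4 ± 4.32 CPM (0.93 ± 0.12, edgeR adjusted p = 7.11e-06), and WNK1, a kinase upstream of SGK1, by 0.56 ± 0.09 (0.000201). SGK3 and PDPK1, the kinase that activates the SGK family, rose by 0.61 ± 0.17 and 0.27 ± 0.07 (edgeR adjusted p of 0.0148 and 0.00976). The SGK3 call was lost without empty vector replicate 2 (0.0542) or CIC::NUTM1 replicate 1 (0.0793), and the PDPK1 call without CIC::NUTM1 replicate 3 (0.101). Between the fusions RICTOR was higher with CIC::NUTM1 by 0.70 ± 0.12 (edgeR adjusted p = 0.000653). WNK1 (0.30 ± 0.09, edgeR adjusted p = 0.0497) and PDPK1 (0.27 ± 0.07, 0.0201) were called too, but each lost its call in 4 of 6 refits.

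All 11 genes of the corticosteroid arm were tested, with 2 higher and 2 lower with CIC::DUX4 and 4 higher and 1 lower with CIC::NUTM1. The called shares were 36.4% and 45.5%, beside 8.24% and 15.3% of all tested genes. NR3C2, the mineralocorticoid receptor, lay between 11.2 and 17.1 CPM and HSD11B2, which protects it from cortisol, between 3.0 and 4.22 CPM, and neither was called. NR3C1, the glucocorticoid receptor, rose with CIC::NUTM1 by 0.52 ± 0.08, from 66.2 ± 3.82 to 95.1 ± 6.45 CPM (edgeR adjusted p = 2.63e-05), and was higher than with CIC::DUX4 by 0.49 ± 0.08 (0.000186). HSD11B1, which regenerates cortisol, had 0 counts with empty vector, 1.86, 1.34 and 1.19 CPM in the CIC::NUTM1 libraries, and 1.45, 1.2 and 0.353 CPM with CIC::DUX4. Its level was at least 11.6-fold above the floor for CIC::NUTM1 and at least 7.9-fold above it for CIC::DUX4, and the gene passed the abundance filter only through fusion libraries. MLLT3, a partner of DOT1L in repression of SCNN1A, rose with CIC::NUTM1 from 47.7 ± 2.54 to 94.4 ± 9.92 CPM (0.98 ± 0.08, edgeR adjusted p = 3.06e-09). It differed from CIC::DUX4 by 0.87 ± 0.08 (edgeR adjusted p = 9.38e-08). Of the glucocorticoid-responsive genes, TSC22D3 (GILZ) was lower with both fusions, by -0.54 ± 0.14 and -0.51 ± 0.14 (edgeR adjusted p of 0.0495 and 0.0409), and PER1 was higher with both, by 0.29 ± 0.09 and 0.27 ± 0.09 (0.0329 and 0.0293), for CIC::DUX4 and CIC::NUTM1 in turn. Each of these 4 calls was lost in 4 or 5 of 6 refits, with edgeR adjusted p up to 0.209. HSP90AA1, a receptor chaperone, was lower with CIC::DUX4 by -0.14 ± 0.04 (edgeR adjusted p = 0.0446), a call lost in all 6 refits, and was higher with CIC::NUTM1 than CIC::DUX4 by 0.26 ± 0.04 (0.000354).

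Of 19 genes for transport partners in salt-reabsorbing epithelium, 10 were tested, and 3 rose with CIC::DUX4 and 6 with CIC::NUTM1. These were 30.0% and 60.0% of those tested, beside 8.24% and 15.3% of all tested genes called. AQP2, the vasopressin-regulated water channel of the collecting duct, and AVPR2, its receptor, had at most 1 count in a library. KCNJ10, a basolateral potassium channel of the distal tubule, had 0.0572, 0.264 and 0 CPM with empty vector, 4.44, 3.37 and 3.52 CPM in the CIC::NUTM1 libraries, and 2.36, 2.25 and 1.35 CPM with CIC::DUX4. The 3 groups did not overlap, and KCNJ10 rose by 4.84 ± 0.53 with CIC::NUTM1 and 3.94 ± 0.54 with CIC::DUX4 (edgeR adjusted p of 1.82e-07 and 1.12e-05). It also passed the filter only through fusion libraries, and with no filter beyond 1 count the changes were 4.83 and 3.92 (edgeR adjusted p of 2.66e-20 and 1.3e-12). The smaller adjusted p came with almost unchanged effects in the same libraries, so it adds no support. Why it fell was not tested. With the filter and without CIC::DUX4 replicate 1, the change with CIC::DUX4 was 3.79 (edgeR adjusted p = 0.000119). KCNMA1, the BK potassium channel, had 0.498 to 0.842 CPM with empty vector, 5.64 to 6.01 CPM in the CIC::NUTM1 libraries, and 1.34 to 1.95 CPM with CIC::DUX4. It rose by 3.15 ± 0.32 with CIC::NUTM1 (edgeR adjusted p = 4.57e-08) and was higher there than with CIC::DUX4 by 1.89 ± 0.29 (8.17e-05), the same order as SCNN1G. Its rise of 1.26 ± 0.33 with CIC::DUX4 (edgeR adjusted p = 0.0155) was not called without CIC::DUX4 replicate 1 (0.136) or empty vector replicate 2 (0.102). SLC12A1, the sodium-potassium-chloride cotransporter of the thick ascending limb, was at 0 with empty vector and reached 2.04, 1.57 and 1.97 CPM in the CIC::NUTM1 libraries, and 1.56, 0.814 and 1.18 CPM with CIC::DUX4. This was at least 14.7-fold and at least 9.36-fold higher, and this gene too passed the filter only through fusion libraries. ATP1B3, a sodium pump subunit, rose with CIC::NUTM1 by 0.53 ± 0.07 (edgeR adjusted p = 2.46e-06), and FXYD5, a pump modulator, by 0.84 ± 0.15 (0.000264). Both exceeded their CIC::DUX4 levels in the CIC::NUTM1 cells, by 0.36 ± 0.07 and 0.58 ± 0.15 (edgeR adjusted p of 0.00101 and 0.0164). FXYD5 lost this call in 4 of 6 refits (edgeR adjusted p up to 0.099).

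Of the 20 epithelial and collecting duct markers 12 were tested, with 4 higher with CIC::DUX4, and 2 higher and 1 lower with CIC::NUTM1. The called shares were 33.3% and 25.0%, beside 8.24% and 15.3% of all tested genes. KRT8, a simple-epithelium keratin, had 36.9, 19.3 and 18.6 CPM with CIC::DUX4 against 9.25 to 11.6 CPM with empty vector, and 6.94 to 11.7 CPM with CIC::NUTM1. It rose with CIC::DUX4 by 1.31 ± 0.27 (edgeR adjusted p = 0.0116) and was the only one of the 4 still called without replicate 1, by 0.91 (0.00241), though not without empty vector replicate 1 (0.0521) or 2 (0.0692). It was lower with CIC::NUTM1 than with CIC::DUX4 by -1.34 ± 0.28 (edgeR adjusted p = 0.014, and 0.063 without CIC::NUTM1 replicate 1). GATA3, a transcription factor of the collecting duct, had 40.7, 41.3 and 41.9 CPM with empty vector, 102, 71.2 and 92.9 CPM in the CIC::NUTM1 libraries, and 68.9, 53.6 and 50.6 CPM with CIC::DUX4. GATA3 rose by 1.1 ± 0.13 with CIC::NUTM1 (edgeR adjusted p = 7.06e-06) and was higher there than with CIC::DUX4 by 0.61 ± 0.12 (0.00531). CALB1, a calcium-binding protein of the connecting tubule, rose with CIC::NUTM1 by 3.6 ± 0.89, from 4 to 41 counts (edgeR adjusted p = 0.00537). It passed the filter only through fusion libraries, and with no filter beyond 1 count its change was 3.6 (edgeR adjusted p = 0.00227). ESRP2, an epithelial splicing factor, fell with CIC::NUTM1 by 0.60 on the log2 scale (edgeR adjusted p = 0.0104). With CIC::DUX4, GATA3 (0.49 ± 0.13, edgeR adjusted p = 0.0221), CALB1 (3.49 ± 0.89, 0.0113) and GRHL3 (1.87 ± 0.52, 0.0229) were called only with replicate 1 included, and had edgeR adjusted p of 0.117, 0.135 and 0.146 without it. The GATA3 and GRHL3 calls were each lost in 4 of 6 refits. GRHL3 passed the filter only with the fusion libraries counted. With no filter beyond 1 count the CIC::DUX4 changes of GRHL3 and CALB1 were 1.84 and 3.47 (edgeR adjusted p of 0.03 and 0.00562), with replicate 1 included.

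**Figure D5:**
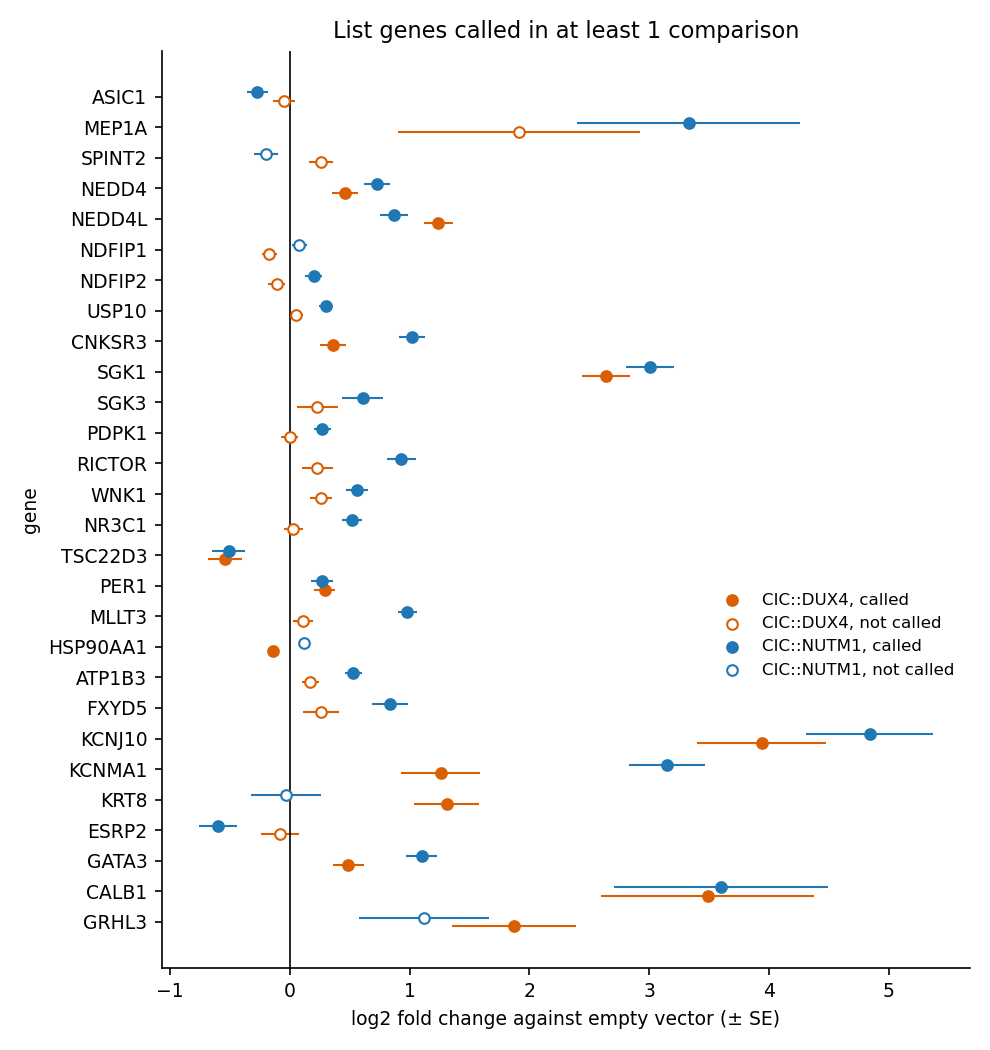
Log2 fold change against empty vector (points, with SE) for the list genes called in at least 1 of the 3 comparisons, with CIC::DUX4 in orange and CIC::NUTM1 in blue, filled where called. HSD11B1 and SLC12A1, at 0 counts with empty vector, are left out, and genes not reported here are not drawn. SGK1, KCNJ10 and CALB1 lie to the right for both fusions, and KCNMA1, MLLT3 and RICTOR lie further right with CIC::NUTM1.

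The search for CIC octamers covered the 4 members, the called list and neighbour genes and the genes most like SCNN1B and SCNN1G, 52 genes of which 35 had a RefSeq window, with 73 windows in all. An octamer lay in 5 of the 73 windows, 1 each of KCNJ10, KRT8, FOSB, PTPN9 and SPRY3, and in 3.77% of all windows in the table. Stretches of 30 bases are shown for KCNJ10, which rose with both fusions, and for FOSB and PTPN9, which followed SCNN1G, in the direction of each gene (GRCh38.p14) with the octamer in capitals on either strand. They lie at chr1:160070254-160070283 (minus strand), chr19:45467982-45468011 (plus strand) and chr15:75579397-75579426 (minus strand). The octamer ended 104 bases before the start of KCNJ10 and 92 bases before that of PTPN9, and that of FOSB ran past the annotated start. A match is a description of the sequence only, and binding was not measured.
KCNJ10: ctccgggccccTCCATTCAcacaaagtttg
FOSB: cgggtctgtgcTTCATTCAtaagactcaga
PTPN9: cgctcagtttcTCAATGGAgccgcgggggg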

How the data were processed

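PolyA RNA of 9 libraries was sequenced. Whole-number raw counts for each Ensembl gene were deposited by the authors, with a second table of log2 CPM for 15811 named genes. Per the submitters' processing notes, GRCh38, STAR 2.7.10b, R 4.2.2 and edgeR 3.40.2 were used. Their roles, the annotation, the counting program and the use of strand are not given in the sources used here, although the library kit was directional per the labels' protocols. For 15718 matched genes the deposited log2 values equalled log2 CPM recomputed from the counts (TMM, prior count of 2) within 4.97e-14.

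Groups came from the sample labels. Symbols matched 62622 of 62700 IDs, and positions, exon lengths and overlaps came from GENCODE 29. Genes were kept by filterByExpr (17576 of 34765 with at least 1 count), scaled by TMM and fitted with 1 mean per group in edgeR 4.0.16 (robust quasi-likelihood, R 4.3.3). The SE is the absolute log2 change over the root of the F statistic. Ratios to empty vector use counts pooled over a group, with an exact binomial interval for 1 control count, and a floor of 3 counts per library for groups at 0. The reads carry no molecular identifiers and are not independent molecules, so floors and intervals cover counting error only. Libraries of one group differed beyond counting noise (chi-square per degree of freedom 4.62 to 7.35).

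The members, gene lists and naming rules were chosen with earlier results of these data known. Named by rule were the 4 members, the 5 tested genes best correlated with SCNN1G and with SCNN1B, and list and neighbour genes called in any comparison. Kidney and neurofilament genes were named as cell type markers. Outside that rule, FURIN, NR3C2, HSD11B2, AQP2, AVPR2, HS3ST2, LTBR, EARS2, UBFD1 and NDUFAB1 were named though not called. The pluripotency genes, PRSS8, ST14 and TMPRSS2 and single epithelial markers were named after their values were seen. Alternatives were DESeq2 size factors, library totals, 2 filters on low counts, DESeq2 1.42.0, limma-trend (limma 3.58.1) on the deposited log2 CPM, prior counts, fits of only the compared groups, a replicate block and each library left out. List and neighbour counts without CIC::DUX4 replicate 1 were added after the data were seen. On simulated counts for CIC::DUX4 against empty vector (17144 genes, 194 of the changed genes tested) edgeR recovered 92.8% of changed genes, with 4.26% of its calls false. The simulation gave all genes 1 dispersion (0.0102) and 200 changes, up or down with equal probability. In the data 84.5% of the calls in this comparison were higher, and these rates need not hold for genes with few counts. Some genes of the lists count in their totals but are not reported here.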

Additional observations from a re-analysis of the deposited data

How the results depend on the processing

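No main result and no call of a named gene changed direction under any alternative tried. Some changes that were not called did, as NPIPB5 between the fusions (-0.12, and 0.01 without CIC::DUX4 replicate 1). Besides leaving out libraries, 121 alternative values were computed for the comparisons, members and lists, of which 104 kept their side of the threshold or stayed within the limit set for a change, 16 moved and 1 passed the threshold. Of 547 such values for named genes, 27 lost a call. Among 420 refits of named genes with 1 library left out, 101 lost a call.

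The number of genes called with CIC::DUX4 against empty vector was 961 with at least 10 counts in every library, beside 1448, and fewer genes were tested there. With 1 library left out it was 869 to 1422, the lowest without CIC::DUX4 replicate 1. For CIC::NUTM1 against empty vector it was 1868 to 3033, and between the fusions 694 to 1272, the lowest without CIC::NUTM1 replicate 3. List genes called with CIC::DUX4 went from 16 to 7 and neighbours from 2 to 1 without CIC::DUX4 replicate 1.

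The SCNN1A change with CIC::DUX4 was 1.89 to 3.87 with 1 library left out. Its direct difference was -2.40 to -0.39, with a call without CIC::DUX4 replicate 2 (-2.38, edgeR adjusted p = 0.0314), and -1.90 without a filter (edgeR adjusted p = 0.0244). The cause was not tested.

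Fitted log2 changes from a control at or near 0 depend on the prior count. SCNN1B with CIC::DUX4 was 9.52, and 9.87 in DESeq2, 7.09 in limma-trend, 8.60 and 7.07 at prior counts of 0.5 and 2, and 9.09 to 11.16 with a library left out. SCNN1B with CIC::NUTM1 was 6.71, and 4.35 in limma-trend, 5.80 and 4.32 at these prior counts, and 6.29 to 8.36 with a library left out. SCNN1G with CIC::DUX4 was 8.47, and 8.04, 4.47, 6.48 and 4.53 in DESeq2, limma-trend and at the prior counts. SCNN1G with CIC::NUTM1 was 10.64, and 10.21, 6.6, 8.64 and 6.66.

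Same-numbered libraries did not deviate together (r from -0.031 to 0.075), so the numbers were not taken as pairs. With the replicate block the SCNN1A change with CIC::DUX4 was 2.80 (edgeR adjusted p = 0.0114), 1472, 2739 and 1201 genes were called in the 3 comparisons, and of the named calls only the direct one of WNK1 was lost. SCNN1A, SCNN1B and SCNN1G have no value with at least 10 counts in every library, nor SCNN1A against empty vector in a fit of only the compared groups, since they do not pass those filters. Depth limits what can be said of SCNN1A, SCNN1B and SCNN1G in the empty vector libraries, at 0 to 8 counts each.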
